A study of Rattus norvegicus with 32 samples.

Results

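Oxidative phosphorylation in C6 cells was read through 81 gene names, which had 99 probes among the 26583 gene names and 30367 probes of the array. Members were chosen by name alone: the Nduf genes of complex I, Sdha to Sdhd, the Uqcr names with Cyc1, Cycs, the names starting with Cox4 to Cox8, and the names starting with Atp5. C6 is a cell line derived from a rat glial tumour. The arrays held 8 groups of 4, which were untreated cells (Control), cells given 100 nM angiotensin II (Ang II), cells given 10 µM Losartan 30 minutes before Ang II (Ang II+Los) and cells given 10 µM PD123319 30 minutes before Ang II (Ang II+PD123319), each at 3 h and at 6 h. Losartan blocks the AT1 receptor of Ang II and PD123319 blocks the AT2 receptor. All of them were 1 cell line grown to confluence in medium with serum, no group received an antagonist alone, and nothing in the labels says that replicates came from separate cultures, so p-values measure only the spread between these samples, which may be technical. In the scanner files the replicate number was the slide and the place on the slide was the group (Control first, then Ang II, Ang II+Los and Ang II+PD123319), so place on the slide and treatment cannot be told apart.

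Oxidative phosphorylation makes most of a resting cell's ATP. Complex I (NADH dehydrogenase) and complex II (succinate dehydrogenase) pass electrons to ubiquinone, complex III (the cytochrome bc1 complex) passes them to cytochrome c, and complex IV (cytochrome c oxidase) hands them to oxygen. Complexes I, III and IV pump protons across the inner mitochondrial membrane, and complex V (ATP synthase) uses the returning protons to make ATP. Most subunits are encoded in the nucleus and a few in mitochondrial DNA. Several nuclear subunits, such as Cox4, Cox6a, Cox7a and Cox8, exist as isoforms used in different tissues. Ang II is known in vascular and heart cells for its link to mitochondrial function, and gliomas are known for a strong use of glycolysis.

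Of the 81 names, 79 were kept at both times, with 35 of complex I, 4 of complex II, 8 of complex III, Cycs, 12 of complex IV, 15 of complex V and 4 other names that the pattern caught. Those 4 were Cox4nb (now known as a subunit of a membrane protein complex of the endoplasmic reticulum, and the neighbour of Cox4i1 on chromosome 19), Atp5s and Atp5sl (not core subunits of ATP synthase), and Cox7a2l (which helps complexes III and IV join into supercomplexes). Ndufa4 was counted here under complex I by its name, although the protein is now assigned to complex IV. Cox6c1 and Atp5hl1 are listed in RefSeq as pseudogenes. Cox8b, the muscle form of Cox8, and Cox8c, a testis form, were left out, since the Cox8b probe rose clearly over background on 0 of 16 arrays at 3 h and 9 of 16 at 6 h, and the Cox8c probe on 0 at either time. The software's setting for this call differed between 3 h and 6 h, so the Cox8b counts are not comparable between times. Cox8a, the general form, was measured well above background on each of the 16 arrays of either time, as were Cox4i1, Cox4i2, Cox6a2, both Cox7a2 probes, Atp5g1, Atp5g2 and Atp5g3. Cox6a1 was so on 15 of 16 arrays at 3 h and on 16 at 6 h. Cox6b and other forms of Cox7a had no member name on the array. No member probe was saturated.

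The upstream bases of a few members are shown because binding sites for NRF1 and GABP are the textbook feature of promoters of this pathway. Sequences are from RefSeq on GRCr8, from 250 bases before the start of the gene to the base before it. All 81 names matched a RefSeq gene (73 by accession, 6 by symbol, 2 by synonym) and 68 had a promoter sequence. They are printed in lower case with the match in capitals.

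Cox6a2, chr1:192219717-192219966, minus strand (MEF2 core in capitals): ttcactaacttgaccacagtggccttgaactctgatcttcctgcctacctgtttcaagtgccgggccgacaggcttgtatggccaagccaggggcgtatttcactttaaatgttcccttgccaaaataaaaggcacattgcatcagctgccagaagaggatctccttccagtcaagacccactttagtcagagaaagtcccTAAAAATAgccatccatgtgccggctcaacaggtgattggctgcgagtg

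Cox4i1, chr19:65630133-65630382, plus strand (no match in this stretch): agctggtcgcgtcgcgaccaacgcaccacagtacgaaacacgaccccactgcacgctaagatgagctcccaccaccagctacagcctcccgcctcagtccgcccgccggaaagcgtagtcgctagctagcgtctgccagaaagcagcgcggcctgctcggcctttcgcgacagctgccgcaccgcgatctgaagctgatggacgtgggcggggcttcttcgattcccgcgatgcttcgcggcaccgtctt

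Cox7a2l, chr6:16936324-16936573, plus strand (NRF1 match in capitals): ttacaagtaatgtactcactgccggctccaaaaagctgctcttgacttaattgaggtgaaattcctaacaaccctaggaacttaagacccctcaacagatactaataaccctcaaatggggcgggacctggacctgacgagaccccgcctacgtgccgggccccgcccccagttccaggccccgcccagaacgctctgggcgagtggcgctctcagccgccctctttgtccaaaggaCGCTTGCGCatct

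Ndufs8, chr1:210573699-210573948, minus strand (GABP match in capitals): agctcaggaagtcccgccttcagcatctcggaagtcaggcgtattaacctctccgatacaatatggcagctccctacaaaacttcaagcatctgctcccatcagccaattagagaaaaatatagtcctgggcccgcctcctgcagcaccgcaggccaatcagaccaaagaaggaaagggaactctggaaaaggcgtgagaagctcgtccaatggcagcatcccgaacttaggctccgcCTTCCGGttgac

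Both strands were searched from 250 bases before to 50 bases after the start. GCGCANGCG, the letters used for NRF1, were found in 19 of 68 member promoters (27.9%), in 6.46% of the 27457 genes with a promoter and in 8.26% of the 19005 protein-coding ones. CCGGAAG, the letters used for GABP, were found in 21 of 68 (30.9%), in 9.63% of all these genes and in 11.6% of the protein-coding ones. Both were present in 3 member promoters and neither in 31. NRF1 letters stood in 9 of 32 promoters of complex I, 6 of 13 of complex V and 0 of 10 of complex IV, and GABP letters in 7 of 32, 4 of 13 and 4 of 10. The 10 of complex IV include Cox8b and Cox8c, which were left out of the fits, and lack Cox4i2, Cox6a1, Cox6c and Cox6c1. In the promoters shown, the NRF1 match of Cox7a2l began at -13 from the start and the GABP match of Ndufs8 at -12, and Cox4i1 held GABP letters at 4 and 24, after its start. TAAAAATA, the core of the sites of the muscle factor MEF2, was found in 1 of 68 member promoters (1.47%), that of Cox6a2 at -49, and in 2.95% of all genes with a promoter. It was searched with the Cox6a2 sequence in view. A match is letters only, and no binding was measured.

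Levels are log2 of the scanner's processed signal, evened between the 16 arrays of a time. They were set separately at 3 h and 6 h, and a level of one probe is not comparable with that of another. An array at 3 h had 55.9% to 64.7% of its spots well above background, and one at 6 h 64.2% to 79.8%. The software's factor for this call was 2.6 at 3 h and 13 at 6 h, so these shares are not comparable between times. One array, Ang II+Los replicate 2 at 3 h, stood apart. Its median correlation with the other 15 arrays of that time was 0.942, the lowest of the 16, and its root mean square residual over all genes was 0.427, against 0.150 to 0.309 for the others. Of the glial markers, 8 of 10 were well above background on all 16 arrays at both times (S100b, Vim, Nes, Cnp, Glul, Sox9, Sox2 and Cspg4), while Gfap and Olig2 were not.

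The members varied less than the array as a whole. Their median residual SD after the slide was taken out was 0.16 at 3 h and 0.08 at 6 h, against 0.23 and 0.15 over all genes. The size of the fold changes was also smaller than over all genes. In Ang II x Control the median absolute log2 fold change of the members was 0.10 at 3 h and 0.07 at 6 h, against 0.17 and 0.13 over all genes. At 6 h the 95% interval of 74 of the 79 members lay within 0.5 on the log2 scale in either direction, and at 3 h that of 58. The members were also brighter. Their median log2 signal was 12.39 at 3 h and 12.37 at 6 h, against 8.25 and 7.79 over all genes. The part of brightness in their smaller SD and fold changes was not tested.

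The 11 core subunits followed here, at least 1 from each complex, had log2 fold changes in Ang II x Control between -0.35 and 0.41 at 3 h and between -0.15 and 0.12 at 6 h. In complex I, Ndufs1, the largest iron-sulfur subunit, lay between 10.56 and 11.58 on the 16 arrays at 3 h and between 11.16 and 11.59 at 6 h, with log2 fold changes of -0.06 and 0.04. Ndufv1, which binds NADH, had 0.04 and -0.12. In complex II, Sdha, which oxidises succinate, had -0.12 and 0.09, and Sdhb, its iron-sulfur partner, -0.03 and 0.07. For both the Control and Ang II arrays overlapped at either time. Uqcrfs1, the Rieske protein of complex III, had -0.01 at 3 h and 0.12 at 6 h, and Cyc1, cytochrome c1 of the same complex, 0.04 and -0.02. Cycs, the mobile carrier, had 0.02 and -0.11, and at 3 h its probes gave -0.14 and 0.19. In complex IV, Cox5a had 0.10 and -0.08, and Cox4i1, described below, was lower at 3 h. In complex V, the catalytic subunit Atp5b ranged most, from 10.44 to 12.68 at 3 h, where its log2 fold change was 0.41 (SE 0.24), against 0.10 at 6 h. Atp5a1, its partner in the catalytic ring, had 0.17 and -0.15. Of these 11, only Cox4i1 at 3 h and Uqcrfs1 at 6 h had an unadjusted p under 0.05 in this comparison.

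**Figure D1:**
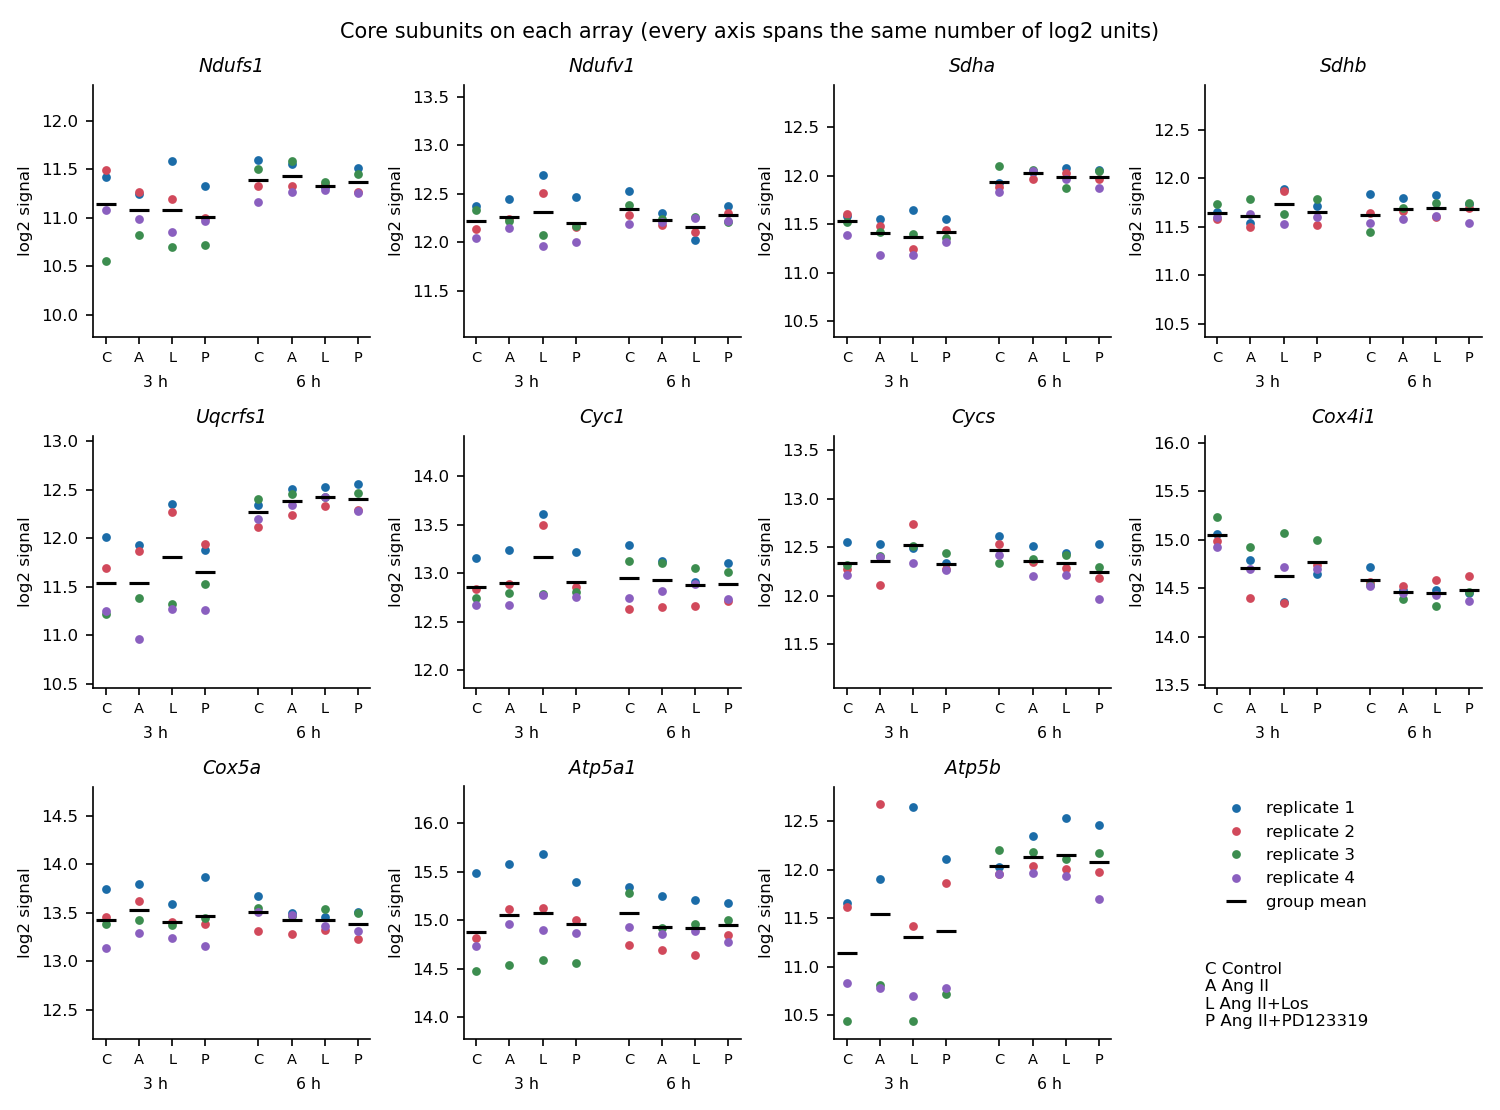
Log2 signal (vertical axes, all of the same span) of 11 core subunits on each array, by group (C Control, A Ang II, L Ang II+Los, P Ang II+PD123319) and time. Points are arrays coloured by replicate number and bars are group means of 4 arrays. The 4 groups of a time overlap for most genes, and Atp5b spreads most, from 10.44 to 12.68 at 3 h and from 11.70 to 12.54 at 6 h.

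The member that varied most did so between slides. Cox6a2, the form of Cox6a known from heart and skeletal muscle, had slide means of 7.03, 11.11, 12.81 and 11.20 for replicates 1 to 4 at 3 h and of 7.13, 11.15, 5.32 and 11.03 at 6 h. The range of these means was 5.78 on the log2 scale at 3 h (54.8-fold) and 5.83 at 6 h (57-fold). Among all genes, this range ranked 4 of 13630 at 3 h and 2 of 16446 at 6 h. The next member was Atp5b at 3 h, with 1.48, and Cox6c1 at 6 h, with 0.97. The median range over the members was 0.49 and 0.30, against 0.66 and 0.51 over all genes, and 5 members at 3 h and 1 at 6 h exceeded 1, against 27.5% and 16.7% of all genes.

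Within a slide the 4 groups stayed close. At 3 h, Cox6a2 was 7.15, 11.53, 12.85 and 11.45 on the Control arrays of replicates 1 to 4, and 7.16, 10.63, 12.77 and 11.00 on the Ang II arrays. On the Ang II+Los arrays it was 6.88, 11.05, 12.84 and 11.19, and on the Ang II+PD123319 arrays 6.95, 11.25, 12.79 and 11.17. In every group replicate 1 was the dimmest and replicate 3 the brightest. At 6 h, Cox6a2 was 7.52, 11.59, 5.49 and 11.32 on the Control arrays, and 6.95, 10.98, 5.24 and 10.92 on the Ang II arrays. It was 6.94, 10.87, 5.31 and 10.91 on the Ang II+Los arrays, and 7.10, 11.16, 5.23 and 10.98 on the Ang II+PD123319 arrays. Here replicate 3 was the dimmest in every group. The probe lies at chr1:187464580-187464639 of rn4, minus strand, and was well above background on all 32 arrays, dim slides included.

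**Figure D2:**
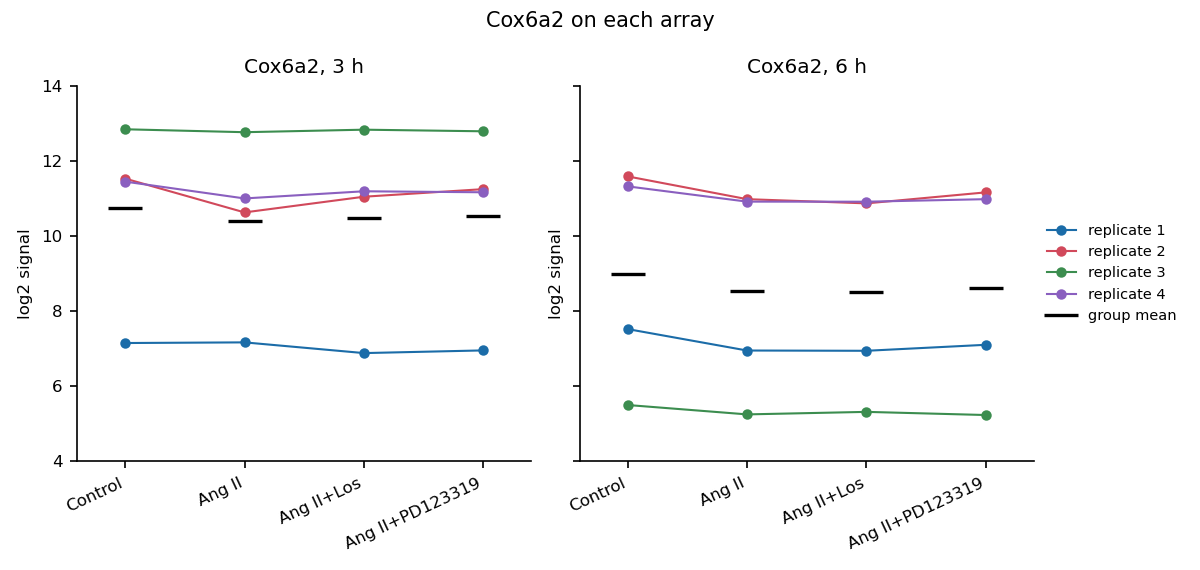
Log2 signal of Cox6a2 (vertical axis) on each array by group, at 3 h (left) and 6 h (right), each time normalized on its own. Lines join the 4 arrays of a replicate number, which share a slide, and bars are group means of 4 arrays. Slides differ by up to 5.83 where the groups of a slide lie close together. At 6 h the Control array is the highest of its slide on all 4 slides.

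The other form, Cox6a1, known as the form of most tissues, did not follow this pattern, with values from 15.27 to 15.73 over the 16 arrays at 6 h. Evened over all 32 arrays together, the levels of the 72 other members without a gap correlated with that of Cox6a2 between -0.86 (Uqcrh) and 0.75 (Atp5s). The median was -0.40, and Cox6a1 was not among the 72. Over 13332 genes, the gene symbols most like it, leaving out 1 name that is an accession alone, were Avil (r = 0.991), Uap1l1 (0.971), RGD1562552 (0.969), Mt2A (0.969), Aox1 (0.961), Sdf2l1 (0.960), Chchd6 (0.958), Ggt1 (0.956) and Rragd (0.952). Avil had slide means of 3.93, 9.59, 11.41 and 9.24 at 3 h and 3.72, 9.21, 2.66 and 8.94 at 6 h on that joint scale. These are correlations over 32 arrays on 8 slides, in which the 4 arrays of a slide share that slide and its level, so they are given as a description. The genes were listed after the Cox6a2 pattern was seen. What differed between slides is not given in the labels, and its part in the Cox6a2 level was not tested.

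The first question of the design was what Ang II alone changed. At 3 h, Ang II x Control had 4 members lower and 0 higher at an unadjusted p under 0.05 in limma, where 7.22% of all 13630 genes were lower and 5.45% higher. Of the members, 5.06% were lower, below the share of all genes. A gene is said below to have passed where its unadjusted p was under 0.05, the threshold of the study's methods, and the p printed beside a gene is adjusted by Benjamini-Hochberg over all genes. None had an adjusted p under 0.05, and no gene of the array did, the lowest being 0.323. The 4 were Cox4i2, Cox4i1 and Cox6a2 of complex IV and Uqcrq of complex III. As the arrays read total RNA of a culture, fewer cells of a kind and less RNA per cell cannot be told apart.

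Cox4i2, the form of subunit IV known from lung and from cells short of oxygen, was 8.99, 8.37, 8.92 and 8.92 on the Control arrays and 8.55, 7.65, 8.44 and 7.97 on the Ang II arrays. It was lower with Ang II on each slide, although the groups overlapped through the low Control replicate 2. The log2 fold change was -0.65 (SE 0.18, adjusted p = 0.323). Cox4i1, the general form, was 15.06, 14.98, 15.24 and 14.93 on the Control arrays and 14.79, 14.40, 14.93 and 14.70 on the Ang II arrays, and here the groups did not overlap, since the lowest Control array stood just above the highest Ang II array. In this comparison the groups did not overlap for 1 of 79 members (1.27%), near the 1.21% of all 13630 genes. The log2 fold change of Cox4i1 was -0.35 (SE 0.12, adjusted p = 0.336). The Cox4i1 and Cox4i2 probes lie on different chromosomes, at chr19:51030141-51030200 and chr3:143114177-143114236 of rn4, both on the plus strand. Cox4nb, the neighbour of Cox4i1, had 0.18 (adjusted p = 0.427) and did not pass. Without replicate 2 the Cox4i1 difference was -0.27 and no longer passed, and with normexp background correction it was -0.11, while Cox4i2 passed in both.

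Uqcrq, a small subunit of complex III, was dim, at 5.86, 5.62, 6.44 and 5.86 on the Control arrays and 5.74, 5.22, 6.10 and 5.30 with Ang II. It was lower on each slide, and its fold change on the log2 scale was -0.35 (SE 0.15, adjusted p = 0.386). Cox6a2 had -0.35 (SE 0.14, adjusted p = 0.361), of which slide 2 gave -0.90, slide 4 -0.45, and slides 1 and 3 0.02 and -0.08. Without replicate 2 the Cox6a2 value was -0.17 and neither gene passed.

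**Figure D3:**
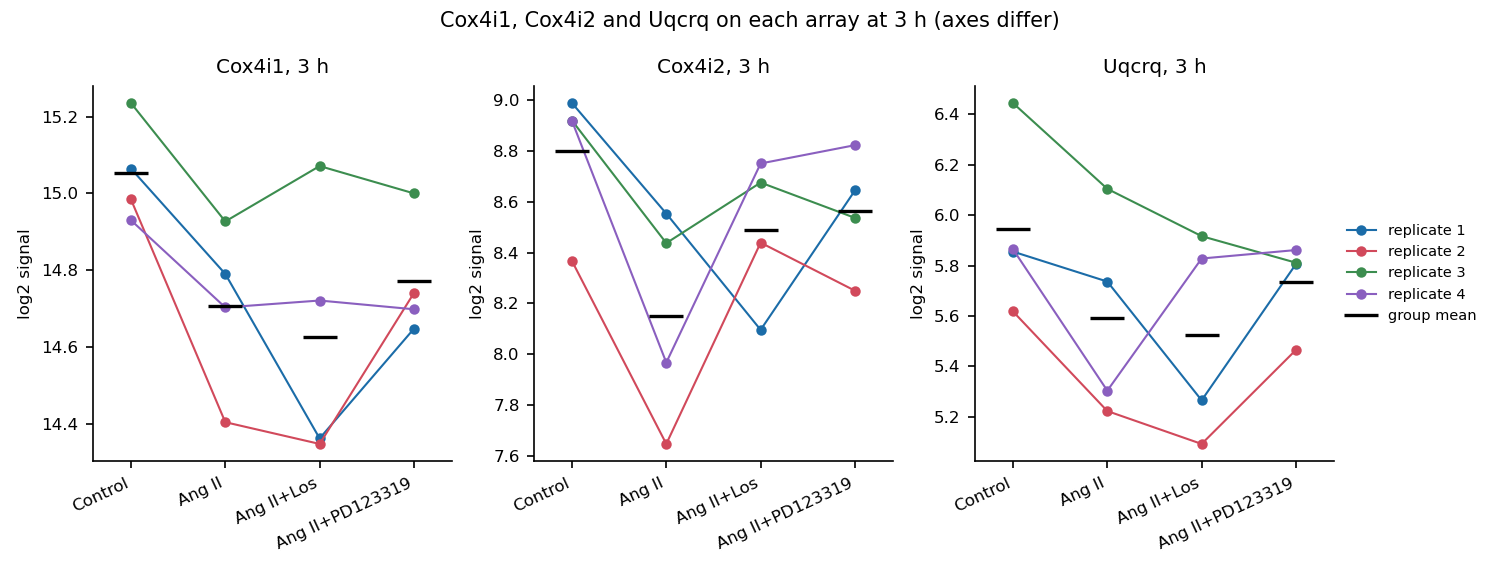
Log2 signal (vertical axes, with different ranges) of Cox4i1, Cox4i2 and Uqcrq on each array at 3 h by group. Lines join the arrays of a replicate number and bars are means of 4 arrays. All 4 lines fall from Control to Ang II in each panel, and the groups overlap except for Cox4i1.

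By complex at 3 h, the median log2 fold change of the 12 members of complex IV was -0.14. Of the 12, which include the pseudogene Cox6c1, 11 were below 0 and 3 were lower at an unadjusted p under 0.05. Of all 13630 genes, 6754 were below 0 and 7.22% were lower at that p. On slide 2 the median of complex IV was -0.39, and on slides 1, 3 and 4 it was -0.04, -0.06 and -0.05. The other complexes had medians of 0.03 (complex I), 0.01 (complex II), 0.04 (complex III) and 0.05 (complex V), against 0.02 over all members and 0.00294 over all genes. Leaving out replicate 2 took the count of members with a p under 0.05 from 4 to 1. The share of all genes without replicate 2 is not set beside that count, which shows only how the members moved. The highest value was that of Atp5i, a membrane subunit of ATP synthase, at 0.56. It came from 2 Control arrays, since the other two had no usable spot.

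At 6 h, Ang II x Control had 4 members higher and 4 lower at an unadjusted p under 0.05, against 10.4% of all 16446 genes higher and 11.0% lower. Either share of members was 5.06%. In limma 0 members had an adjusted p under 0.05, and no gene of the array did. The lowest of a member was that of Cox6a2, 0.0593, also the lowest over all genes. Its log2 fold change was -0.46 (SE 0.0776), made of -0.57, -0.61, -0.25 and -0.41 on slides 1 to 4. The group values given above overlap widely between slides, and the difference rests on the comparison within slides. Without the slide in the fit its SE was 1.88 and its adjusted p 1.000, and with normexp background correction the value was -0.53 with an adjusted p of 0.294. The adjusted p was 0.0358 without replicate 3.

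Cox7a2l, the supercomplex factor whose promoter is shown above, was 12.52, 13.18, 12.92 and 13.43 on the Control arrays and 12.35, 12.93, 12.76 and 13.18 with Ang II at 6 h. It was lower on each slide and the groups overlapped, with -0.21 (SE 0.0688, adjusted p = 0.138). At 3 h its value was 0.34 (adjusted p = 0.595), with no value for Control replicate 1. Ndufa6, an accessory subunit of complex I, was 12.58, 12.76, 12.52 and 12.76 against 12.35, 12.57, 12.51 and 12.53, with -0.17 (SE 0.0622, adjusted p = 0.167). Slide 3 gave -0.01 of it and the other slides -0.23, -0.19 and -0.23. Cox6a1 had -0.14 (SE 0.0590, adjusted p = 0.192) and was lower on each slide.

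Of the 4 that were higher, Ndufa9, an accessory subunit of complex I near its ubiquinone site, was 10.97, 10.64, 10.94 and 10.67 on the Control arrays and 11.04, 10.90, 10.93 and 10.97 with Ang II. It had 0.16 (SE 0.0625, adjusted p = 0.183) and was higher on 3 of 4 slides. Atp5g3, one of the genes for the c subunit of the proton-driven ring, was 12.31, 11.60, 12.21 and 11.61 against 12.34, 11.88, 12.33 and 11.86, with 0.17 (SE 0.0703). Its 2 probes gave 0.16 and 0.18. At 3 h they differed, at -0.16 and 0.67, of which the second had an unadjusted p under 0.05. Uqcrfs1 had 0.12 (SE 0.0548, adjusted p = 0.226), and Cox4nb, which is no subunit, 0.16 (SE 0.0654, adjusted p = 0.186), and both were higher on all 4 slides. With arrays scaled to their 75th percentile the split was 0 higher and 3 lower. Leaving out replicate 2 left 2 members with a p under 0.05 and leaving out replicate 4 left 1, against 7 without replicate 1 or 3. The shares of all genes under these alternatives are not set beside these counts, which show only how the members moved.

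By complex at 6 h, the median of complex IV was -0.08, with 8 of 12 members below 0, against 8574 of 16446 genes. On slides 1 to 4 the median of complex IV was -0.18, 0.02, -0.07 and -0.01, so that slide 2 lay above 0. The medians were -0.03 for complex I (22 of 35 below 0), 0.08 for complex II, 0.05 for complex III and -0.01 for complex V, against -0.02 over all members and -0.01 over all genes. Of the markers of other cell types, 2 of the 3 measured genes of the neuron list passed, where 11.0% of all genes were lower. They were Tubb3 at -0.72 (adjusted p = 0.166) and Map2 at -0.32 (adjusted p = 0.231), which passed in 4 of 14 alternatives. The summed signal of the list was 246 to 352 on the Control arrays and 190 to 252 on the Ang II arrays. The microglia list, of which 5 genes were measured, summed to 409 to 573 and 349 to 505, with no gene passing, and the 2 measured endothelial genes to 81 to 145 and 71.3 to 128. The probes of Syt1, Ptprc, Pecam1 and Tek were well above background on 0 arrays. The 8 glial markers summed to 10300 to 12400 and 10700 to 11900, and 1 of them, Cnp, passed, at 0.42 (adjusted p = 0.119) and higher on each slide. At 3 h, Cx3cr1 of the microglia list had -1.10 (adjusted p = 0.323), the 1 of its 4 measured genes that passed, and of the glial markers Sox2 passed, at 0.58 (adjusted p = 0.329). Their part in the member values was not tested.

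The antagonist groups were then set against Ang II alone. These comparisons share the Ang II arrays with the one above, so that a low Ang II array raises a member here and lowers it there, and the values are given side by side with no further reading. With Losartan at 3 h, 2 members were higher and 2 lower, against 5.20% and 5.80% of all genes. The split became 5 and 1 with scaling to the 75th percentile and 3 and 1 with quantile normalization. For those settings the shares of all genes are not set beside it. Cyc1 was 13.61, 13.50, 12.79 and 12.78 on the Ang II+Los arrays and 13.24, 12.89, 12.79 and 12.67 with Ang II alone, with 0.27 (SE 0.12, adjusted p = 0.423). Cox6c1, the pseudogene of a complex IV subunit, had 0.48 (SE 0.22, adjusted p = 0.423), with slides of both signs. Ndufa7, an accessory subunit of complex I, was 6.21, 3.74, 7.25 and 7.21 with Losartan and 7.38, 7.18, 7.41 and 7.13 with Ang II alone. The Ndufa7 probe was well above background on 3 of the 4 Ang II+Los arrays. Its -1.17 (SE 0.49, adjusted p = 0.423) came from replicates 1 and 2, above all from the array that stood apart, and without that array it was -0.43 and did not pass. Uqcrc1, a core protein of complex III, had -0.24 (SE 0.11, adjusted p = 0.423) and was lower on each slide.

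Without that array 0 members had an unadjusted p under 0.05 in limma for this comparison. That count is not set against the share of all genes. With that array, 58 of 79 members were above 0, with a median of 0.08, against 7080 of 13630 genes and 0.01. On slide 2 the median over members was 0.36, and on slides 1, 3 and 4 it was -0.05, 0.00321 and 0.00282. With PD123319 at 3 h, 1 member was higher, Cox4i2, and 0 were lower, against 2.42% and 0.734% of all genes. Cox4i2 was 8.64, 8.25, 8.54 and 8.82 on those arrays, above the Ang II array of its slide on all 4, with 0.41 (SE 0.18, adjusted p = 1.000). With Losartan, Cox4i2 was 8.10, 8.44, 8.68 and 8.75, at 0.34 (adjusted p = 0.423) against Ang II alone, below it on slide 1 and above it on the other 3. Cox6c1 with PD123319 had 0.45 and did not pass.

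At 6 h, 0 members had an unadjusted p under 0.05 with Losartan or with PD123319 against Ang II alone. Over all genes 0.778% were higher and 1.30% lower with Losartan, and 3.95% and 2.43% with PD123319. The methods' t-test gave 2 and 3 members, counts that are not set against the share of all genes under that test. The intervals were narrow, and 76 of 79 members with Losartan and 75 with PD123319 had a 95% interval within 0.5 on the log2 scale in either direction. The lowest p with Losartan was that of Ndufb10, an accessory subunit of complex I, at 0.10 (95% interval -0.04 to 0.24, adjusted p = 1.000), followed by Ndufs1 at -0.10 (-0.25 to 0.05). With PD123319 it was Ndufs7 at 0.11 (-0.03 to 0.26, adjusted p = 0.842), followed by Ndufs8 at 0.10 (-0.04 to 0.23), both iron-sulfur subunits next to each other in complex I. Cox6a2 differed from Ang II alone by -0.01 (-0.18 to 0.16) with Losartan and by 0.10 (-0.07 to 0.27) with PD123319. With Losartan 58 of 79 members were above 0, with a median of 0.02, against 8116 of 16446 genes and -0.0016. The medians of slides 1 to 4 were -0.03, 0.03, 0.08 and 0.02.

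**Figure D4:**
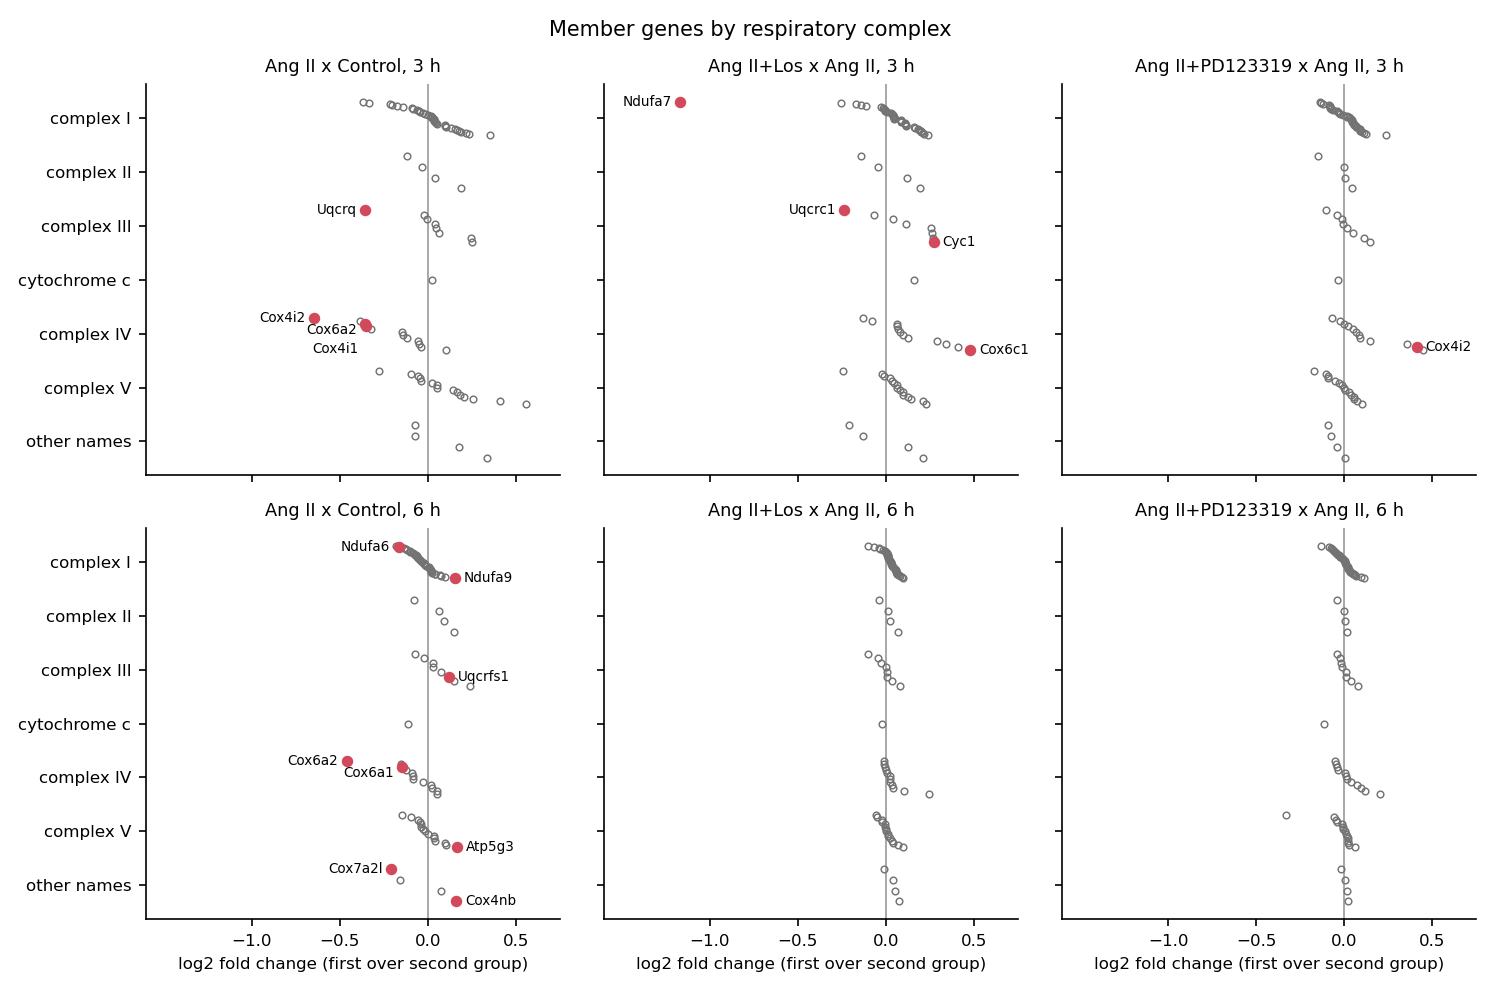
Log2 fold change (horizontal axis) of the 79 members by complex in the 6 comparisons, 3 h above and 6 h below. Each point is a gene and filled named points have an unadjusted p under 0.05. The complex IV points of Ang II x Control reach -0.65 at 3 h, and no point is filled in either antagonist comparison at 6 h.

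The antagonist groups were also set against Control, a comparison that shares the Control arrays with Ang II x Control. At 3 h, 12 members had a p under 0.05 with Losartan, against 21.5% of all genes, and 1 with PD123319, against 7.56%. Of the 12, 7 were higher and 5 lower (3 and 7 with quantile normalization). The higher ones included Uqcrh, the hinge protein of complex III, at 0.51 (adjusted p = 0.186) and Atp5f1, of the stalk of ATP synthase, at 0.43 (adjusted p = 0.191). The lower ones included Cox4i1 at -0.43 (SE 0.12, adjusted p = 0.181) and Ndufa3 at -0.62 (adjusted p = 0.186). Without the array that stood apart 5 were left. Neither this count nor the quantile split is set against the share of all genes. Without replicate 2 Uqcrh was 0.25, Atp5f1 0.23 and Ndufa3 -0.40, and none of the 3 passed. With PD123319 the member was Cox4i1, at -0.28 (SE 0.12, adjusted p = 0.649), and with normexp it was -0.20 with Losartan and -0.01 with PD123319, passing in neither. Cox4i1 was 14.36, 14.35, 15.07 and 14.72 with Losartan and 14.65, 14.74, 15.00 and 14.70 with PD123319.

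At 6 h, 11 members passed with Losartan, against 22.1% of all genes, and 11 with PD123319, against 23.0%. With PD123319 3 were higher and 8 lower, a split that became 0 and 5 with scaling to the 75th percentile and 6 and 6 with quantile normalization. Under those settings the share of all genes is not set beside the split. Only Cox6a2 had an adjusted p under 0.05 in the main fit of either comparison, a threshold that 1.42% and 1.22% of all genes passed. Its value was -0.47 (SE 0.0776, adjusted p = 0.0347) with Losartan and -0.36 (SE 0.0776, adjusted p = 0.0493) with PD123319, and it was lower on 4 of 4 slides in each. Over the 14 alternatives tried the adjusted p ran from 0.0236 to 1.000 and from 0.0422 to 0.999, and leaving out replicate 1, 2 or 4 took both past 0.05. With normexp background correction the values were -0.19 and -0.21. Among the markers, Tubb3 was lower in both comparisons, at -0.76 and -0.84, Map2 was lower with Losartan, at -0.41, and Aif1 of the microglia list higher with PD123319, at 0.29. Of the glial markers, Cnp was higher in both, at 0.29 and 0.39, Glul with Losartan, and S100b and Sox2 with PD123319, where Sox9 was lower. At 3 h against Control, Cnp was lower with Losartan, at -1.02, with slides of both signs, and so was Cx3cr1, at -0.66. Sox2 was higher with PD123319 there, at 0.56. Against Ang II alone, Cnp was lower with Losartan at 3 h, at -1.12. With PD123319 at 6 h, S100b and Aif1 were higher than with Ang II alone, at 0.28 and 0.38, and Sox9 lower, at -0.46. None of these markers had an adjusted p under 0.05. Their part in the member values was not tested. Other members named for Ang II x Control at 6 h are set side by side here. Atp5g3 was 0.17, 0.27 and 0.19 with Ang II, Ang II+Los and Ang II+PD123319, Ndufa9 0.16, 0.21 and 0.13, and Cox7a2l -0.21, -0.14 and -0.19. Since the 3 share the same 4 Control arrays, they are not separate measurements of one difference.

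**Figure D5:**
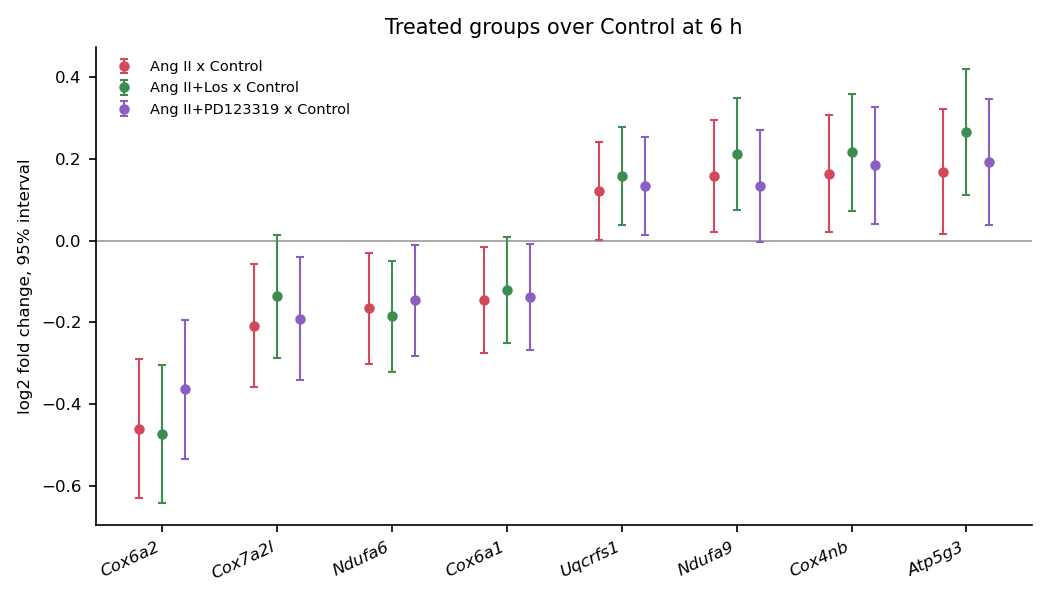
Log2 fold change over Control at 6 h (vertical axis) of the 8 members named in Ang II x Control, for the 3 treated groups. Points are limma estimates from 4 arrays a group and bars are 95% intervals. Cox6a2 lies lowest, at -0.46, -0.47 and -0.36, and all 3 groups share the same Control arrays.

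Over all 4 groups at once, limma's F test had p under 0.05 for 2 members at 3 h (Cox4i1 and Cox4i2), against 11.5% of all genes, and for 6 at 6 h, against 19.0%. The 6 were Cox6a2, Atp5g3, Cox4nb, Ndufa9, Cox7a2l and Ndufa6. No adjusted p of a member was under 0.05, the lowest being 0.0780 for Cox6a2. A test of the difference between 6 h and 3 h in Ang II x Control, on the 32 arrays evened together, had p under 0.05 for 6 members, against 6.86% of the 13617 genes tested, with the lowest adjusted p at 0.704.

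Other genes of the pathway were read from lists of related function, to be set against the shares of all genes that passed, 5.45% higher and 7.22% lower at 3 h and 10.4% and 11.0% at 6 h. In Ang II x Control at 3 h, 0 of 24 measured assembly factors had a p under 0.05, with the lowest p for Cox18, which inserts a complex IV subunit into the membrane, at -0.17 (adjusted p = 0.428). At 6 h 1 was higher and 5 lower. Tmem70, needed to assemble ATP synthase, had 0.25 (SE 0.0617, adjusted p = 0.0953) and Atpaf2, which does the same for its catalytic head, -0.31 (SE 0.0753, adjusted p = 0.0953). Cox18, Ecsit, Ndufaf3 and Surf1 were the other 4 that were lower, at -0.30, -0.16, -0.52 and -0.21. Of 16 regulators of mitochondrial biogenesis, 0 passed at 3 h (lowest p, Peo1, the helicase of mitochondrial DNA, at -1.10, adjusted p = 0.393). At 6 h Polg, the polymerase of mitochondrial DNA, was higher at 0.26 (adjusted p = 0.163), and Nrf1 and Pprc1 were lower, at -0.18 (adjusted p = 0.148) and -0.22 (adjusted p = 0.205). Nrf1 encodes the factor whose letters were counted in the promoters above.

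Of the citric acid cycle and pyruvate dehydrogenase, 1 of 15 genes was higher at 3 h, Pdhb at 0.63 (SE 0.20, adjusted p = 0.324), of which slide 2 gave 1.58 and the others 0.31, 0.39 and 0.23. At 6 h 2 of 16 were higher, Dlat at 0.28 (SE 0.0543, adjusted p = 0.0658) and Pdhb at 0.33 (SE 0.0783, adjusted p = 0.0853), both parts of pyruvate dehydrogenase and higher on all 4 slides. Suclg1, of the cycle, was lower at -0.24 (adjusted p = 0.115). Of 13 carriers, pores and import proteins 4 were higher at 3 h, where 5.45% of all genes were, and of these Vdac3, a pore of the outer membrane, had 0.92 (SE 0.21, adjusted p = 0.323). The others were Tomm40 at 0.69, with 2.00 on slide 2, Tomm70a at 0.32 and Timm17a at 0.26, and none of these 3 passed without replicate 2. At 6 h 1 of 14 was higher, Timm44 at 0.28 (adjusted p = 0.225), which was -0.02 with normexp. The 3 measured subunits with names outside the pattern had no p under 0.05 at either time, and Atpif1, the inhibitor of ATP synthase, had 0.07 and -0.05. None of these genes had an adjusted p under 0.05 in this comparison, the lowest being 0.0658 for Dlat. In the other comparisons only Dlat was under it, in Ang II+Los x Control at 6 h, at 0.30 (adjusted p = 0.0385). There 1.42% of all genes had an adjusted p under 0.05, and the Control arrays are the same.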

How the data were processed

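The 32 arrays are single-colour Agilent rat arrays, 4 per group, of Cy3-labelled RNA. The labels give 0.5 µg of RNA for labelling. Per the file headers, Agilent Feature Extraction 9.5.3.1 measured each spot and wrote a background-subtracted processed intensity, with surrogate values for dim spots at 6 h and none at 3 h. The factor for calling a spot well above background was 2.6 at 3 h and 13 at 6 h, and the array's coordinates are on rn4. The deposited log2 values equalled the log2 of that intensity in 100% of the 561803 values compared (tolerance 1e-05), and 38.2% of them were blank. Normalization by Lowess and t-tests followed in the study's methods, and the series record calls the tests paired.

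Here the processed intensity was used. Outlier-flagged spots were dropped, and at 3 h a signal not above background was replaced by its error. Spots of a probe were averaged after log2, a probe could lack at most 2 values, and it stayed if some group had it well above background on each of its 4 arrays. Cyclic loess (3 iterations, span 0.7) was run among the 16 arrays of a time, and the probes of each gene were then averaged. The fits held 13630 genes at 3 h, of which 230 had a gap, and 16446 at 6 h, of which 66 had one. limma 3.58.1 in R 4.3.3 was fitted on the 16 arrays of a time with the slide as a block. A gene passed at an unadjusted p under 0.05, the threshold of the methods, and p-values were adjusted by Benjamini-Hochberg over all genes. Intervals are 95%. Arrays of the same number deviated together, with a median correlation of 0.671 at 3 h and 0.687 at 6 h over 24 pairs of arrays each (lowest 0.143 and 0.552). Arrays of different numbers had medians of -0.124 and -0.169 (highest 0.366 and 0.125), so at 3 h the ranges overlapped. The number is the slide, and the numbers were taken to pair the samples. Scan sessions can be told from the headers, each holding whole slides (replicates 1 and 2, then 3 and 4, at 3 h, and replicates 1 to 3, then 4, at 6 h), so the slide block covers the scan. The number of arrays limits the precision.

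The members and the lists of other genes were chosen with earlier results of these data known. Named were 11 core subunits, the 2 members with the lowest p in each of the study's 6 comparisons, isoform families, the gene with the lowest p of each list in Ang II x Control, and the further members that passed. Genes like Cox6a2 were added after its values were seen. The alternatives were no block, the methods' t-test, normexp background (offset 50), quantile normalization, scaling to the 75th percentile, a stricter filter, no filter, each probe alone, only the 8 arrays compared, the deposited log2 values, and leaving out each replicate. The fit was tested on simulated data. Sequences were read with Python 3.11.15 and pandas 2.3.3, and figures drawn with matplotlib 3.10.9.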

Additional observations from a re-analysis of the deposited data

Results flagged for a closer look

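Among 206 groups of 4 arrays (26 member genes), 8 held an array whose gap to the nearest of the others passed Dixon's critical value as a share of the group's range, which chance does in about 1 of 20 groups. The levels used still held the differences between slides, which the groups of a time share. The 206 groups are therefore not independent, that rate is only a rough guide, and a flagged array may reflect its slide. The highest or lowest array was Ang II replicate 1 for Atp5g3 at 3 h (gap over range 0.856), Control replicate 2 for Cox4i2 at 3 h (0.887), Ang II+PD123319 replicate 2 for Uqcrq at 3 h (0.86), and Ang II+Los replicate 4 for Cox4i2 at 6 h (0.898). The others were Ang II+Los replicate 1 for Cox4nb (0.872), Ang II replicate 2 for Cox5a (0.863), Ang II+PD123319 replicate 4 for Cox6a1 (0.872) and Ang II replicate 2 for Ndufa7 (0.855), all at 6 h. The low Cox4i2 array is the one through which Control and Ang II overlap at 3 h.

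By the limma interaction test, the Ang II x Control difference had an unadjusted p under 0.05 between 6 h and 3 h for 6 of 79 members (7.59%), near the 6.86% of all genes, and none had an adjusted p under 0.704. The difference of the log2 fold changes, 6 h minus 3 h, was -0.32 for Atp5a1 (SE 0.10, from 0.17 to -0.14), -0.25 for Sdhc, a membrane anchor of complex II (from 0.18 to -0.06), and 0.56 for Cox4i2 (SE 0.25, from -0.65 to -0.09). It was 0.42 for Ndufa11, an accessory subunit of complex I (from -0.33 to 0.08), -0.57 for Atp5i (from 0.56 to -0.01, with no value on 2 of the 4 Control arrays at 3 h) and 0.32 for Atp5hl1 (from -0.28 to 0.04, with no value on 1 of them). The 2 times were on different slides and, per the file headers, were read with different settings of the scanner software, and the part of these in the differences was not tested.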

How the results depend on the processing

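The fold changes of the 17 members that passed in the study's comparisons kept their direction under the alternatives, and 9 of the 17 passed in more alternatives than they failed. Cox4i2 in Ang II x Control at 3 h passed in 14 of 14 and Cox6a2 at 6 h in 12 of 14, while Uqcrc1 with Losartan at 3 h passed in 3 of 14, Cyc1 and Cox6c1 there in 7 of 15, and Cox6a1, Atp5g3 and Uqcrfs1 at 6 h in 5 of 13, 5 of 14 and 6 of 14. Of 28 further fold changes recomputed after the data were seen, 1 turned, Timm44 at 6 h with normexp (-0.0228). Of 20 values of core subunits that did not pass, 7 changed sign under at least 1 alternative, Cycs at 3 h from -0.14 to 0.18. The counts of members with a p under 0.05 moved more, and the causes were not tested. The share of all genes that passed under each alternative is not set beside these counts. They therefore show only how the members moved, not whether members passed more or less often than other genes. Without the replicate block, in the unpaired fit, the counts at 3 h were 1 for Ang II x Control, 1 for Ang II+Los x Ang II, 0 for Ang II+PD123319 x Ang II, 1 for Ang II+Los x Control and 0 for Ang II+PD123319 x Control, and at 6 h 0, 0, 0, 1 and 0 in the same order. In the order used for the block, the methods' t-test gave 6, 1, 1, 3 and 7 at 3 h and 10, 2, 3, 8 and 5 at 6 h, and the fit of the 8 arrays alone 4, 0, 1, 3 and 1 and then 2, 0, 0, 2 and 1. For the following the F test stands last. The alternatives for the comparisons of antagonist groups with Control, and for the F test, were added after the data were seen. Scaling to the 75th percentile gave 4, 6, 1, 13, 0 and 3 at 3 h and 3, 0, 0, 7, 5 and 1 at 6 h. Quantile normalization gave 7, 4, 1, 10, 3 and 2, and then 7, 0, 0, 11, 12 and 8. Normexp gave 7, 6, 1, 14, 3 and 5, and then 10, 0, 2, 13, 17 and 10. The stricter filter gave 4, 3, 1, 11, 1 and 2, and then 8, 1, 1, 13, 13 and 7, and no filter 9, 4, 2, 17, 2 and 3, and then 3, 0, 0, 8, 7 and 2. Each probe alone, where a gene counted if any of its probes passed, gave 5, 3, 1, 13, 2 and 3, and then 10, 0, 1, 15, 12 and 8. The deposited values, in which only complete probes can be used (46 members at 3 h and 53 at 6 h), gave 1, 1, 0, 4, 0 and 0, and then 6, 0, 1, 11, 10 and 8. Leaving out a replicate number gave ranges of 1 to 6, 0 to 6, 0 to 2, 1 to 13, 1 to 2 and 0 to 5 at 3 h, and 1 to 7, 0 to 2, 0 to 1, 4 to 14, 2 to 11 and 1 to 6 at 6 h. Leaving out the Ang II+Los replicate 2 array at 3 h, added after the data were seen, gave 4, 0, 2, 5, 1 and 2. The median over members moved past the spread between slides in 1 case, Ang II x Control at 3 h with quantile normalization (-0.06 against 0.02). The adjusted p of Cox6a2 in Ang II x Control at 6 h ran from 0.0358 (without replicate 3) to 1.000 (no block). Low signal limits what can be read from dim members such as Uqcrq and Ndufa7, and from Cox6a2 on its dim slides.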
